A study of Mus musculus with 2 samples.

Results

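The genes of the primitive streak and of the posterior body axis were read in 2 cultures of mouse embryonic stem cells. Of these, 1 was labelled wild type and 1 Setd2 knockout. The set was chosen by gene symbol and held T, Eomes, Mixl1, Evx1, Cdx1, Cdx2, Cdx4, Mesp1, Tbx20 and Trh. All 10 were found, each on 1 row, among 17817 genes. Both groups were mESCs of mixed 129SV/C57BL/6 strain at passages 10 to 12 with no specific treatment, and they differed by genotype, labelled wild type and Setd2 KO. Setd2 encodes the enzyme that places trimethylation on lysine 36 of histone H3, and the sources used here do not give the way in which it was disrupted or whether either culture came from a single clone. The cells had grown on feeder cells, which were largely removed by letting them attach to gelatin for 0.5 h, and the RNA was taken 2 days after a further passage on gelatin. Each genotype had 1 library and no replicate, so no test between genotypes was possible and no p-value is given. Every difference below describes these 2 libraries.

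The primitive streak is the furrow of the gastrulating embryo through which epiblast cells leave to become mesoderm and endoderm. It forms where Wnt, Nodal and BMP signals meet, and T, Eomes and Mixl1 are among the first transcription factors made there. The caudal genes Cdx1, Cdx2 and Cdx4 act later in the posterior body and control Hox genes. Undifferentiated stem cells keep these transcription factor genes low, and their appearance is commonly read as the onset of mesendoderm or posterior fate. Some of these genes act elsewhere too, since Cdx2 and Eomes also act in the trophectoderm, Tbx20 in the heart and Trh in the nervous system.

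Levels are given in CPM, the share of a library's total scaled to 1000000. A read equivalent is 76 sequenced bases over the gene, and 56.1 of them made 1 CPM for wild-type cells, against 52.0 for knockout cells. T and Cdx2 were higher in knockout cells and Tbx20 and Trh were lower, each by more than 2-fold. The sequences before the start of these 4 genes are shown because they were the genes of the set past 2-fold. Each is the run of 250 bases that ends just before the start site, 5′ to 3′ on the gene's own strand, from RefSeq's promoter table for GRCm38.p6. Each had a single exact match in NCBIM37, the assembly of mm9, and the mm9 positions are given.

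The T promoter lies at chr17:8627038-8627287 on the plus strand, the Cdx2 promoter at chr5:148118826-148119075 on the minus strand, the Tbx20 promoter at chr9:24578748-24578997 on the minus strand and the Trh promoter at chr6:92194645-92194894 on the minus strand. Capitals mark matches, on either strand, to CTTTGA (the core bound by Tcf and Lef factors), GGTGTG (T-box factors), TTTATG (Cdx factors), GGGCGG (the GC box) and TATAAA (the TATA box).
T: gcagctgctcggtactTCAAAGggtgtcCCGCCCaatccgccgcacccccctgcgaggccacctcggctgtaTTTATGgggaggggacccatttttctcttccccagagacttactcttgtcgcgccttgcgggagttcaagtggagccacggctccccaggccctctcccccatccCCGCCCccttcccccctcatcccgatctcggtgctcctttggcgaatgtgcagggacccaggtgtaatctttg
Cdx2: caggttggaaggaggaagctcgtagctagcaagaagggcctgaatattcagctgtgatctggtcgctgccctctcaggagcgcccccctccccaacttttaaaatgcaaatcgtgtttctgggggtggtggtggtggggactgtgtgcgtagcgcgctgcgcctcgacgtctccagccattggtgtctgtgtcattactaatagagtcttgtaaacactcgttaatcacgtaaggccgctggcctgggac
Tbx20: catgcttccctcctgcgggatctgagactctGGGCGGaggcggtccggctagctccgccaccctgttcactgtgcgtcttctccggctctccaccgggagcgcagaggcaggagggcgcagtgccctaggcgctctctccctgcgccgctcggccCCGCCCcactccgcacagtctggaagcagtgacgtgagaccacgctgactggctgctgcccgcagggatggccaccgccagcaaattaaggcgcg
Trh: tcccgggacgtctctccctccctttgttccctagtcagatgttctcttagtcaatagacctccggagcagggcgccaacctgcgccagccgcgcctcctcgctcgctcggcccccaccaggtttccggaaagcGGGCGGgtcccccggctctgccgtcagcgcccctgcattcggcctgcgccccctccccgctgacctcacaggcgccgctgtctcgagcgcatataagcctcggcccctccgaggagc

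Counting the last base before the start as -1, the T window held a Tcf/Lef match from position -234, a Cdx match from -178 and 2 GC boxes. Tbx20 held 2 GC boxes and Trh held 1, while the Cdx2 window held none of the searched letters. No matches overlapped. Of 32851 promoter windows of the same length, 13.8% held the Tcf/Lef letters, 16.3% the T-box letters, 10.8% the Cdx letters, 32.7% the GC box and 12.4% the TATA box. Of the 8 genes of the set in that table, 2 held the Tcf/Lef letters (T and Mesp1), 1 the T-box letters (Evx1), 1 the Cdx letters (T), 3 the GC box and 0 the TATA box. A match is only a match of letters, and variants, such as the TATAAG in the Trh window, were not searched for. All 4 printed windows were richer in GC than the median window (52.4%), at 62.8% for T, 55.2% for Cdx2 and 68.8% for both Tbx20 and Trh. Their observed over expected CpG ratios were 0.594, 0.690, 0.749 and 0.899 against a median of 0.374, so all 4 lay above the median, higher and lower genes alike. The windows of Eomes, at 0.621, and Evx1, at 0.676, lay above it too, so a high CpG ratio was not particular to the 4 genes. Among the 8 windows Mesp1 had the lowest CpG ratio, 0.105, and Cdx4 stood at 0.344.

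The libraries held 56129838 read equivalents (wild type) and 52041677 (knockout) over genes. Setd2 stood at 452 CPM and 174 CPM, a ratio of 38.5%, as a total over the whole gene. All 14 embryonic stem cell markers found were above 1 CPM in both libraries, and none of them was 2-fold apart, with a median log2 fold of -0.25 and 12 of the 14 below 0. The median log2 fold of all 13523 genes averaging at least 1 CPM was 0.05. Folds are log2 of the knockout over the wild-type level after adding 0.5 CPM to each, and ratios are of the levels themselves. The added 0.5 CPM makes the fold of a low gene smaller than its ratio, and 2-fold higher or lower in counts of genes refers to the fold. Ratios and levels carry exact 95% intervals for counting error only, which hold no variation between cultures or lines, and sequenced reads are not independent molecules.

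**Figure D1:**
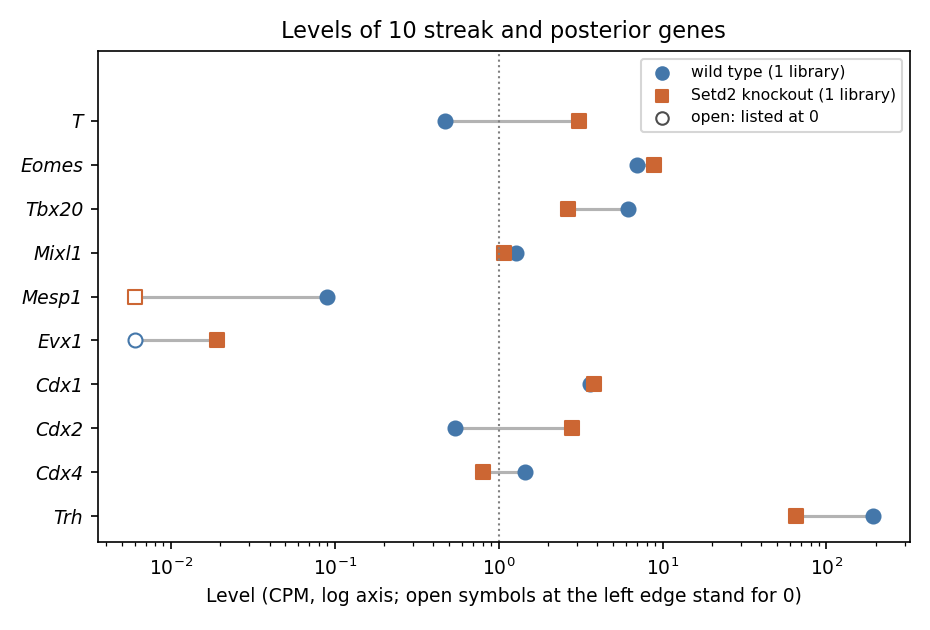
Level of each of the 10 genes in wild-type cells (circles) and knockout cells (squares), in CPM on a log axis, with open symbols at the left edge for genes listed at 0 and a dotted line at 1 CPM. T and Cdx2 lie below 1 CPM in wild-type cells and at 3.10 and 2.80 CPM in knockout cells, and Trh is far above the other genes in both.

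Among the T-box genes, T, Eomes and Tbx20 each behaved differently. T (brachyury, gene number 20997, chr17:8627288-8635361, mm9) encodes the factor that drives mesoderm formation in the streak. It had 26.4 read equivalents in wild-type cells and 161 in knockout cells, or 0.470 and 3.10 CPM. The knockout level was 6.59 times the wild-type level (interval 4.39 to 10.5), a log2 fold of 1.89. In RNA from whole cultures, a larger number of cells with the transcript and more transcript per cell cannot be told apart. Eomes (chr9:118387307-118395249) encodes the T-box factor needed for definitive endoderm and for mesoderm to leave the streak. It stood at 7.02 and 8.83 CPM, 1.26 times the wild-type level (1.10 to 1.44). T and Eomes, which act together in the streak, were both above the wild-type level but by very different amounts, and only T passed 2-fold. Tbx20 (chr9:24527648-24578746), a regulator of heart muscle and valve genes, went the other way. It stood at 6.17 and 2.65 CPM, or 43.0% (35.1 to 52.6%).

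The caudal genes also differed in direction. Cdx2 (chr5:148112476-148118825) had 30.3 read equivalents in wild-type cells and 146 in knockout cells, or 0.539 and 2.80 CPM. Its ratio was 5.20 (3.52 to 8.06) and its log2 fold 1.67. Cdx1 (chr18:61178517-61195853), a paralog driven by Wnt and retinoic acid in the streak, was close in the libraries at 3.61 and 3.80 CPM, with a ratio of 1.05 (0.861 to 1.29). Cdx4 (chrX:100516737-100525563), the X-linked paralog, stood at 1.45 and 0.803 CPM, or 55.6% (37.6 to 82.2%). It stayed within 2-fold on the log2 scale, at -0.58. The ratio interval thus lay above 1 for Cdx2, held 1 for Cdx1 and lay below 1 for Cdx4. Over all 16548 genes listed above 0 in both libraries, it lay above 1 for 37.0% and below 1 for 27.6%. Per kilobase of exon Cdx2 was the lowest of the 3 paralogs in wild-type cells and lay between Cdx1 and Cdx4 in knockout cells.

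The other streak transcription factors were low or next to undetected. Mixl1 (chr1:182623181-182627165), a homeobox gene that directs streak cells towards endoderm, stood at 1.28 and 1.08 CPM, and its ratio of 0.840 (0.581 to 1.21) included 1. Mesp1 (chr7:86937128-86938476), which marks the earliest cardiac progenitors leaving the streak, had 5 read equivalents in wild-type cells and was listed at 0 in knockout cells. Evx1 (chr6:52263492-52268372), a homeobox gene of the posterior streak beside the Hoxa cluster, was listed at 0 in wild-type cells and had 1 read equivalent in knockout cells. A count of 0 allows a level of up to 0.0534 CPM for wild-type and 0.0576 CPM for knockout cells, taken as 3 read equivalents. No fold is given for Mesp1 or Evx1, whose levels lie near that limit. A long noncoding RNA gene on the opposite strand, 5730457N03Rik, shares 73 exon bases with Evx1, and the sources used here do not say whether counting used strand. None of the other 9 genes overlapped an annotated gene.

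Trh (chr6:92192056-92194642) encodes the precursor of thyrotropin-releasing hormone and is no transcription factor. It had 10776 read equivalents in wild-type cells and 3381 in knockout cells, or 192 and 65.0 CPM. The knockout level was 33.8% of the wild-type level (32.6 to 35.2%), a log2 fold of -1.56. Trh alone made up 90.3% of the summed level of the 10 genes in wild-type cells and 73.8% in knockout cells. The sum was 213 CPM in wild-type cells and 88.1 CPM in knockout cells. Without Trh it was 20.6 and 23.1 CPM, so the direction of the sum turned with that gene.

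**Figure D2:**
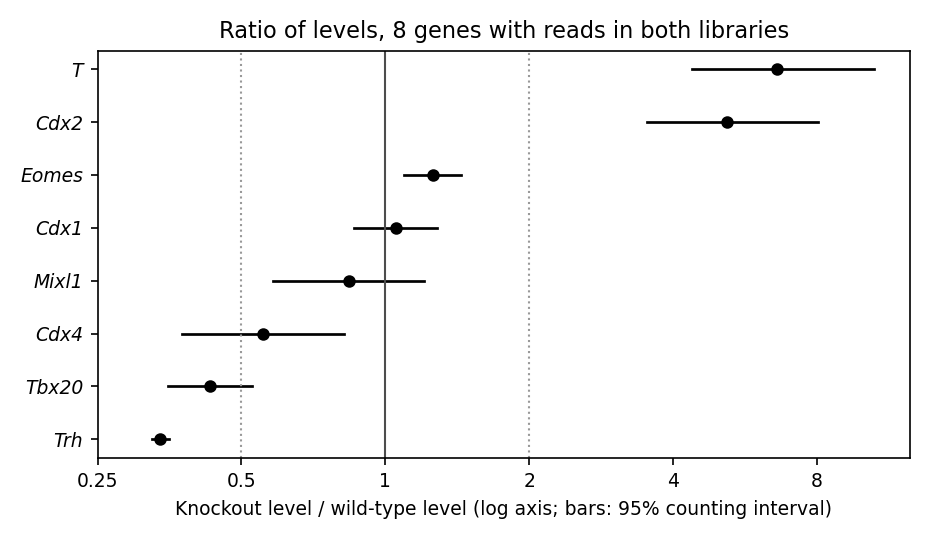
Ratio of the knockout to the wild-type level for the 8 genes with reads in both libraries, on a log axis, with bars for the 95% counting interval, a solid line at 1 and dotted lines at 0.5 and 2. T and Cdx2 lie wholly above 2, Trh wholly below 0.5, and the intervals of Cdx1 and Mixl1 hold 1.

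Levels of different genes were compared per kilobase of annotated exon. In wild-type cells Trh stood at 139 CPM per kb (136 to 141), higher than 98.1% of 16855 genes with a matched gene model. Cdx1 followed at 2.06 (1.79 to 2.37) and Eomes at 1.69 (1.53 to 1.87), neighbours whose intervals overlapped. Tbx20 came next at 1.37, then Cdx4 at 0.736 and Mixl1 at 0.558, which overlapped each other. Cdx2 at 0.239 (0.160 to 0.338) and T at 0.203 (0.131 to 0.294) could not be told apart by their intervals, and Mesp1 at 0.0699 (0.0227 to 0.163), whose interval reached that of T, and Evx1 at 0 came last. The median over all genes was 3.66, so every gene of the set except Trh lay below it.

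In knockout cells T, Cdx2 and Tbx20 held other places in the order. Trh still led at 46.9 CPM per kb (45.4 to 48.6), and Cdx1 at 2.17 and Eomes at 2.12 again followed with overlapping intervals. T at 1.34 (1.14 to 1.56) and Cdx2 at 1.24 (1.05 to 1.46) came next, again overlapping, and both lay above Tbx20 at 0.590 (0.496 to 0.697). In wild-type cells Tbx20 had been above both. T stood higher than 21.0% of genes in wild-type and 36.7% in knockout cells, and Cdx2 higher than 22.0% and 35.8%. Mixl1 at 0.469 overlapped with Tbx20 above it and with Cdx4 at 0.409 below it, and Evx1 at 0.00668 and Mesp1 at 0 stayed at the bottom. In knockout cells too, T and Cdx2 stood below the median of all genes, 3.67.

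Few exon windows of these genes had a near-identical copy elsewhere in the genome. Windows of 76 bases were cut every 10 bases from the exons of each gene and aligned to the genome. No window of T, Mixl1, Evx1, Cdx1, Cdx2, Cdx4, Mesp1 or Trh had another place with at most 2 mismatches, a share of 0%. For Eomes the share was 0.269% and for Tbx20 0.518%. The deposited starts of the 10 genes lay within 198 bases of the gene models, the largest difference being that of Mesp1.

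Read against all genes, differences past 2-fold were uncommon. Of the 8 genes of the set listed above 0 in both libraries, 2 were at least 2-fold higher in knockout cells and 2 at least 2-fold lower. Over all 16548 genes listed above 0 in both libraries, 1.70% were that much higher and 1.73% that much lower. With a mean of at least 1 CPM the background was 1.76% higher and 2.11% lower of 13523 genes. The same 8 genes passed that floor, but T and Cdx2 passed it only through the knockout library, so a low wild-type level and a difference were built into their passing it. Cdx4 passed it only through the wild-type library. Low genes were more often apart, and among the 2671 genes with a mean of 1 to 5 CPM, 4.87% were at least 2-fold higher and 3.41% lower. These low genes include T and Cdx2, which were higher, Tbx20, which was lower, and Mixl1, Cdx1 and Cdx4, which were within 2-fold. T and Cdx2 were again among them only through the knockout level. By fold T ranked 36 and Cdx2 55 from the top of the 13523 genes, and Trh ranked 96 and Tbx20 245 from the bottom. Ratio intervals away from 1 were common everywhere, above 1 for 37.0% and below 1 for 27.6% of the 16548 genes. Eomes was among the former and Cdx4 among the latter.

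**Figure D3:**
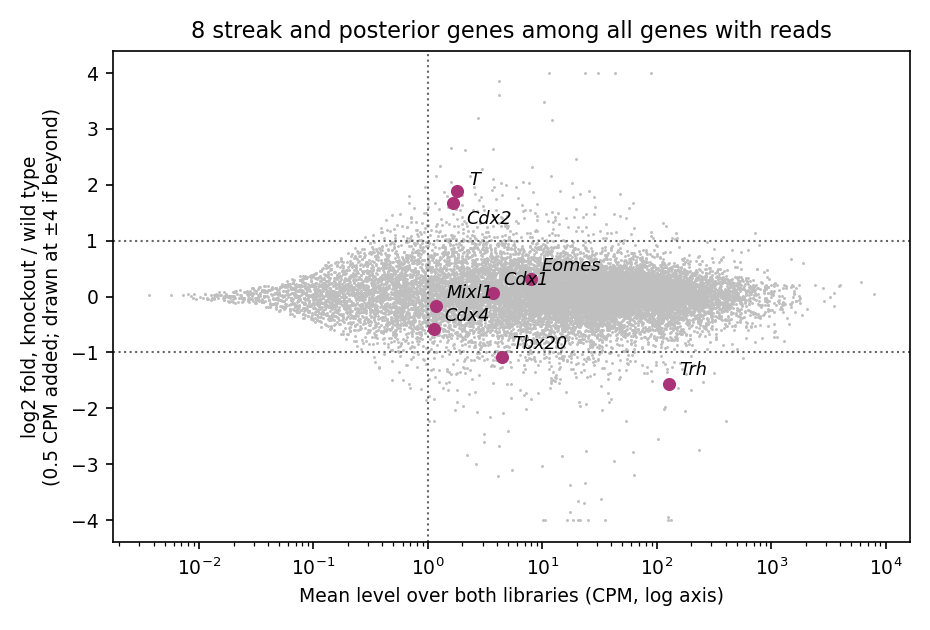
Log2 fold (knockout over wild type, 0.5 CPM added) against mean level in CPM on a log axis for all genes with reads in both libraries (grey), with the 8 genes of the set in colour and dotted lines at 2-fold and at 1 CPM. T and Cdx2 lie at 1.89 and 1.67 among low genes, Trh lies at -1.56 among abundant ones, and the other 5 lie between -1.08 and 0.31.

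Genes near the 4 that stood apart were mostly close in the libraries. Within 500 kb of T, 7 other genes had a mean of at least 1 CPM, with a median log2 fold of 0.19. Of these only Pde10a, a phosphodiesterase gene 456 kb away between midpoints, was over 2-fold higher (0.850 and 2.40 CPM), and it was picked after seeing its value. The nearest rows on either side of T, Prr18 and the unnamed locus NEWGENE58, had folds of -0.07 and -0.03. Around Cdx2, 9 genes over the floor had a median of 0.17 and none was 2-fold apart. The adjacent homeobox gene Pdx1, 25.8 kb away, stood at 0.624 and 0.877 CPM, and its ratio of 1.41 (0.894 to 2.27) included 1. On the other side Prhoxnb was close to undetected, at 0.0813 and 0.124 CPM.

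Neighbours of the lower genes were close as well. Tbx20 had only 2 genes over the floor within 500 kb, its neighbours Dpy19l1 (-0.01) and Herpud2 (-0.09). Around Trh, 5 genes over the floor ran from -0.37 to 0.17, with Zfyve20 at -0.14 and Prickle2 at -0.11 beside it. Mesp1 lies 17.1 kb from its paralog Mesp2, which stood at 2.01 and 2.06 CPM, a ratio of 1.02 (0.777 to 1.34), so only Mesp1 of that pair was near 0. Hoxa13, the nearest row before Evx1, was listed at 0 in wild-type cells and stood at 0.0766 CPM in knockout cells. Near Cdx4 on the X chromosome, the testis gene Tsx had a log2 fold of -0.59, close to the -0.58 of Cdx4, and the antisense RNA gene Tsix -2.02, while Xist, on the opposite strand to Tsix, was at -0.02. Tsx, Tsix and Xist were picked after seeing their values, and Tsix and Xist overlap, so their reads cannot be told apart without strand. The chromosomes of the 10 genes had median folds from 0.00 (chromosome 7) to 0.17 (X). Chromosome 8, which holds none of them, stood apart, with a median of -0.35 over 719 genes and 82.2% of them below 0. Leaving chromosomes 8 and Y out of the library total shifted the knockout levels by -0.02 on the log2 scale. Any other part of chromosome 8 in the results was not tested.

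**Figure D4:**
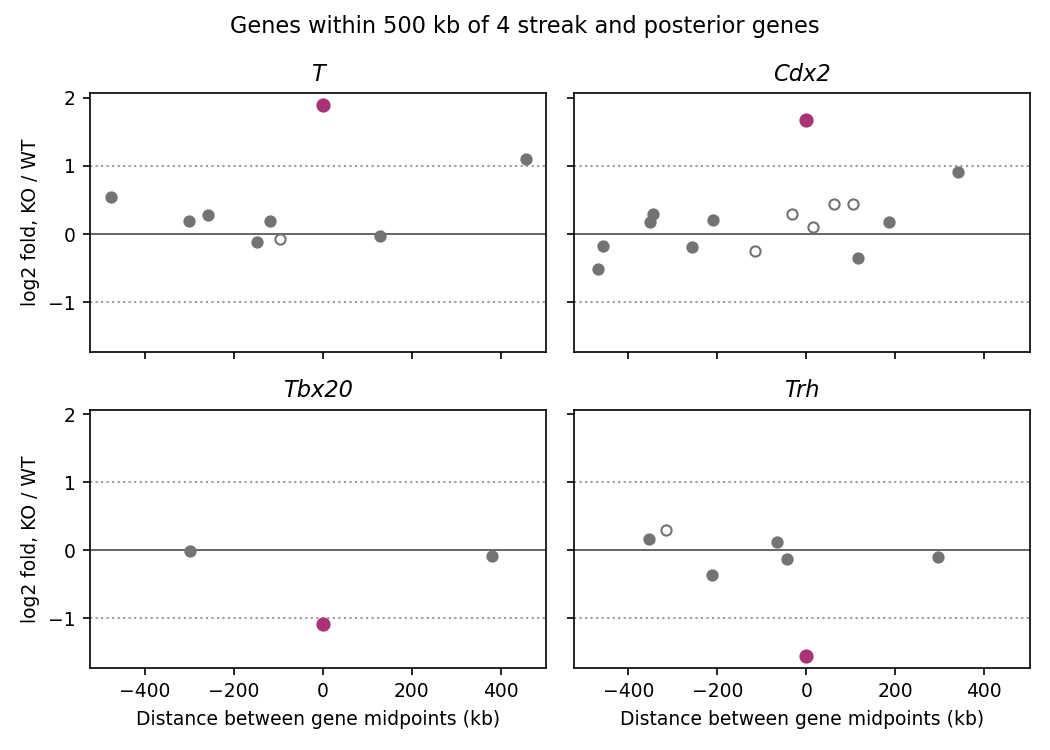
Log2 fold (knockout over wild type, 0.5 CPM added) of genes within 500 kb of T, Cdx2, Tbx20 and Trh against the distance between gene midpoints in kb; coloured points are the 4 genes, filled grey points are genes averaging at least 1 CPM and open points lower genes. Apart from Pde10a near T, no neighbour passes the dotted 2-fold lines.

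The further streak genes over 1 CPM had smaller ratios than T, but T passed that floor only through the knockout library. Below the floor, Lhx1 of the same list had a larger ratio, 7.60 (1.16 to 383), from 1.12 and 7.88 read equivalents. Lhx1 was picked after seeing its value. Of 25 further streak and mesendoderm genes 24 were found and 15 had a mean of at least 1 CPM, of which 0 were at least 2-fold higher and 2 lower, with a median of -0.23 against 0.05 over all genes. The lower genes were Gata6, an endoderm transcription factor gene, at 6.00 and 0.953 CPM, and the receptor gene Pdgfra at 17.9 and 6.00 CPM. Wnt3, the ligand that starts the streak, came closest to 2-fold higher, at 1.56 and 3.51 CPM (log2 fold 0.96), and its ratio with nothing added was 2.25 (1.75 to 2.96). Fgf5, a gene of the post-implantation epiblast, stood at 0.906 and 1.87 CPM, so its knockout level alone put it over the floor, and its ratio was 2.07 (1.46 to 2.97). Counted by that plain ratio, 2 of the 15 were at least 2-fold higher and 2 lower. Streak genes such as Msgn1 (0 in both libraries), Tbx6 (0.321 and 0.446 CPM) and Fgf8 (0.544 and 0.405 CPM) stayed below 1 CPM, chosen here after their values were seen. Gata6 and Pdgfra are also on the primitive endoderm marker list.

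Signals upstream of the streak were mostly close. Of 31 ligands, receptors and mediators of the Wnt, Nodal, BMP and FGF pathways, 28 were over the floor, 0 were 2-fold higher by the fold and 1 lower, with a median of -0.10. By the plain ratio 1 was 2-fold higher, Wnt3 at 2.25. The lower one was the ligand gene Bmp4, at 49.3 and 15.9 CPM, or 32.2% (29.8 to 34.9%). The convertase genes Furin and Pcsk6, whose products process Nodal, were at 61.8% and 57.0%. Nodal itself stood at 44.3 and 54.9 CPM and Wnt3a at 0.614 and 0.653 CPM, both picked after seeing their values.

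Posterior axis genes over the floor lay mostly above their wild-type level, and nearly all within 2-fold. Of 25 posterior axis genes 19 were found and 10 were over the floor, 8 of them above a fold of 0 and 2 below, with a median of 0.34. Of all genes over the floor 56.4% lay above 0. Under 3 of the 4 other scalings Hoxb13 and Hoxd13 dropped under the floor, and the median over the remaining 8 genes was 0.10 to 0.12. Of these 8 genes 6 lay above 0. Under the same scalings 49.9% to 51.9% of all genes over the floor lay above 0, with medians from -0.001 to 0.015. Only Hoxc13 was over 2-fold higher, at 1.75 and 4.83 CPM, a ratio of 2.76 (2.19 to 3.54). Hoxb9 stood at 2.34 and 3.52 CPM, and Hoxd13, which passed the floor only through the knockout, at 0.687 and 1.35 CPM. Without the floor, over 17 genes with reads in both libraries, the median was 0.12. Nkx1-2, a marker of the caudal epiblast, stood at 0.434 and 0.404 CPM, and Cyp26a1, which clears retinoic acid from the tail end, at 0.416 and 0.402 CPM. Nkx1-2 and Cyp26a1 were picked after seeing their values.

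Within the T-box family T had the largest fold of the genes over the floor, but its wild-type level was only 0.47 CPM. Of 17 family genes 14 were found and 7 passed the floor, with T the only one at least 2-fold higher and Tbx20 the only one lower. Since T owed its place above the floor to its knockout level, that count was partly built in. Requiring 1 CPM in wild-type cells removed T and left 6 family genes, 0 of them at least 2-fold higher. Per kilobase of exon, Mga (43.8 and 37.3 CPM per kb), which partners Max, and Tbx3 (26.8 and 29.3), a pluripotency regulator, were the abundant ones. Tbx15 had a fold of 0.43 and Tbx21 of -0.07. Below the floor Tbx2 stood at 0.0713 and 0.412 CPM, from 4 and 21.4 read equivalents. Its ratio was 5.78 (1.91 to 22.7), with an interval that overlapped that of T. Tbx5, a heart gene also below the floor, stood at 0.0701 and 0.0665 CPM. Tbx2 and Tbx5 were picked after seeing their values.

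Because Tbx20 and Mesp1 are heart genes, 18 cardiac mesoderm genes were read beside them. Of 17 found, 6 passed the floor, with a median of -0.42, 1 at least 2-fold higher and 0 lower. The higher gene was the muscle transcription factor gene Mef2c, at 0.890 and 2.39 CPM, which passed the floor only through the knockout. The calcium channel gene Ryr2 stood at 17.2 and 8.97 CPM, Smarcd3 at 7.28 and 4.42 CPM and the myosin gene Myh7 at 4.68 and 3.04 CPM, each within 2-fold. Over 16 genes with reads in both libraries the median was -0.02.

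Streak-related genes under 1 CPM were read by their ratio intervals. Over the streak, posterior, T-box and cardiac lists, 30 such genes had reads in both libraries, their ratio interval lying above 1 for 7, below 1 for 2 and around 1 for 21. Over all 3049 genes at that level, the interval lay above 1 for 16.0% and below 1 for 11.0%. The Wnt agonist gene Rspo3 had 6 and 50.6 read equivalents, a ratio of 9.10 (3.93 to 26.1). The cardiac actin gene Actc1 had 2 and 23.0 (ratio 12.4, interval 3.07 to 109), and the axial mesoderm gene Lhx1 1.12 and 7.88 (7.60, interval 1.16 to 383). Gata5, of the cardiac list, had 2.12 and 17 (8.655, interval 2.18 to 81.8). The 2 intervals below 1 were those of the endoderm genes Foxa2 and Sox17. Foxa2 had 11 and 1 read equivalents (0.0980, interval 0.00228 to 0.675) and Sox17 had 33 and 15.0 (0.489, interval 0.247 to 0.928). The genes named in this paragraph were picked after seeing their values.

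**Figure D5:**
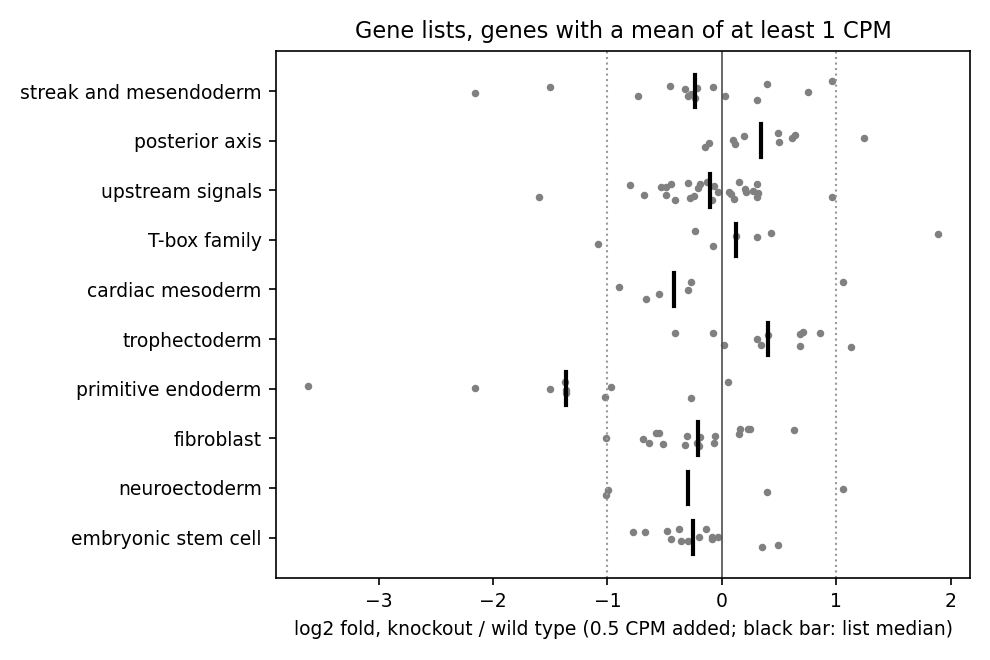
Log2 fold (knockout over wild type, 0.5 CPM added) of each gene averaging at least 1 CPM in 10 gene lists, with black bars for list medians and dotted lines at 2-fold; the T-box list holds T, Eomes and Tbx20 themselves. Posterior axis and trophectoderm medians lie at 0.34 and 0.41, streak and upstream signal medians at -0.23 and -0.10, and primitive endoderm at -1.36.

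Beside Cdx2 and Eomes, 16 of 20 trophectoderm genes were found and 11 were over the floor, 1 of them at least 2-fold higher and 0 lower. Of these 11, 9 lay above a fold of 0 and 2 below, with a median of 0.41, against 56.4% of all genes above 0. The summed level of the list was 116 CPM for wild-type and 141 CPM for knockout cells. Id2, an inhibitor of differentiation factors, was the higher one (7.46 and 17.0 CPM). Esx1, Dlx3 and Krt18 stood at 3.38 and 6.53, 3.15 and 5.48, and 10.3 and 16.9 CPM. Under the floor, the trophoblast genes Elf5 and Prl3d1 were listed at 0 in wild-type cells and had 0.0769 and 0.0150 CPM in knockout cells. Also under it were Krt7 (0.392 and 1.05 CPM), Gata3 (0.499 and 0.743 CPM) and Hand1 (0.962 and 0.806 CPM). The part of trophectoderm cells in the Cdx2 difference was not tested.

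Beside Tbx20 and T, the medians of the primitive endoderm and fibroblast lists lay below 0, as did that of the embryonic stem cell markers (-0.25). Of 14 primitive endoderm markers 10 were over the floor, 0 were 2-fold higher and 7 lower, with a median of -1.36 and a summed level of 893 and 610 CPM. The receptor gene Cubn stood at 60.9 and 4.50 CPM, the basement membrane gene Col4a2, on chromosome 8, at 55.9 and 21.3 CPM, and Afp was at 0 in both libraries. Of 22 fibroblast markers, standing for feeder cells, 18 were over the floor, 0 were 2-fold higher and 1 lower, with a median of -0.21. Their summed level was nevertheless higher in knockout cells, 2952 and 3194 CPM, most of it Fn1 (2666 and 2957 CPM). The lower one was Prrx1, at 5.97 and 2.70 CPM. Lum was listed at 0 in knockout cells and stood at 0.0713 CPM in wild-type cells. Of 12 neuroectoderm markers 4 were over the floor, with a median of -0.30 (0.11 over the 9 with reads in both libraries), Nes at 60.2 and 126 CPM and Gbx2 at 51.4 and 25.3 CPM. The part of these cell types in the Tbx20, Trh and T values was not tested.

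The genes nearest to each one in level over both libraries were also named, by distance on log2 of CPM plus 0.5; over only 2 libraries such likeness is a coarse description. For T they were Calcr (0.483 and 3.15 CPM), Cdx2 itself and Zscan4e, a 2-cell-stage gene with near-identical copies whose level is uncertain. For Cdx2 they were Syt1 (0.637 and 2.87 CPM), Maob and Zscan4b, of the same gene family as Zscan4e. For Tbx20 they were Vcam1 (6.01 and 2.71 CPM), Prrx1 of the fibroblast list and Lhfp. Trh had no close match, its nearest being Zc3h7a (176 and 71.3 CPM) at a distance of 0.18 and Dock5 at 0.26. Those of Eomes were Iscu, Sec61b and Dtnbp1, of Mixl1 Ccdc89, Cntnap1 and Cyp26b1, of Cdx1 Stap2, Pigyl and Npr2, and of Cdx4 Lrrc33, Fam26e and Pkd1l3, all within 0.04.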

How the data were processed

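RNA libraries of 1 wild-type and 1 Setd2 knockout culture were compared. The submitters' processing notes name mm9, TopHat 1.0.13 and CASAVA 1.6.0, with no role given. The deposited values carry an RPKM header but were read as log2 of read equivalents (units of 76 bases) plus 1, without scaling for depth or length: among values under 200, 85.9% and 85.7% were whole multiples of 1 base, within 0.05. The sources used here do not give the authors' log2 step. Values were turned back, scaled to CPM on the library total, and, where a symbol had several rows, the highest was taken (17817 genes of 17827 rows). Ratio intervals are exact conditional binomial and level intervals exact Poisson on rounded read equivalents (Python 3.11.15, scipy 1.17.1). Exon lengths came from GENCODE models of NCBIM37 and windows were aligned with minimap2 2.31. The arithmetic was tested on simulated data.

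The genes, lists and alternatives were chosen with earlier results of these data known. Named by rule were the 10 genes, Setd2, the 4 largest absolute folds over 1 CPM in each list, the adjacent rows and the 3 nearest genes in level; 2 genes that this rule names are not reported here. Alternatives were other pseudocounts, floors, thresholds and scalings.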

Additional observations from a re-analysis of the deposited data

How the results depend on the processing

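No paired analysis was possible because each genotype has 1 library, so leaving out a library was not possible either. The log2 folds of the 8 genes were read again under pseudocounts of 0.1 and 1 CPM, the plain ratio and the 4 scalings. Their signs did not change, but a pseudocount cannot turn a sign and the scaling shifts were small, so only the sizes are informative. T ran from 1.48 to 2.72, Cdx2 from 1.31 to 2.38, Tbx20 from -1.22 to -0.97 and Trh from -1.61 to -1.55. The ends of the ranges for T and Cdx2 come from the pseudocount, with the plain ratio at the top. The scalings moved all folds by at most 0.05. The posterior axis median, 0.34, was 0.10 to 0.12 under 3 scalings, 0.10 at a floor of 5 CPM (3 genes) and 0.15 with a wild-type level of at least 1 CPM. The upstream signal median, -0.10, reached -0.16. Of the 2 higher and 2 lower genes of the set, a pseudocount of 1 CPM left 1 lower, since Tbx20 fell just short. A floor of 5 CPM, which T, Cdx2 and Tbx20 do not reach, left 0 higher and 1 lower, and a 3-fold threshold left 0 lower. Keeping only genes whose wild-type level was at least 1 CPM, chosen after the data were seen, left 0 higher, since it removes T and Cdx2. Over all genes, against 238 higher and 285 lower, the plain ratio, added after the data were seen, gave 359 higher, a floor of 5 CPM 108 higher, a 1.5-fold threshold 1004 higher and 916 lower, and a 3-fold threshold 62 and 93. At these depths genes such as Mesp1 and Evx1, with 5 read equivalents or fewer, cannot be compared.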
